A study of Rattus norvegicus with 12 samples.

Results

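The genes described here take fatty acids into the heart muscle cell and oxidise them. They are 46 named genes, fixed by symbol and grouped by step: uptake, activation, the carnitine shuttle, malonyl-CoA control, dehydrogenation, electron transfer, the later steps of beta-oxidation, peroxisomal enzymes, and thioesterases and uncoupling proteins. Of these, 45 had a row among the 23553 entries of the deposited table, and Acaa1a was not found there under that name. All 45 passed the filter on low counts that left 13756 genes for testing.

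Fatty acids are the main fuel of the adult heart. They are freed from lipoproteins at the vessel wall, enter the myocyte, are activated to acyl-CoA, cross the inner mitochondrial membrane as acylcarnitines and are then shortened in repeated rounds of dehydrogenation, hydration, a further dehydrogenation and thiolysis. Malonyl-CoA blocks the first carnitine step, peroxisomes shorten the longest chains, and the electrons released reach the respiratory chain through flavoproteins and NADH.

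RNA was sequenced from the free walls of the right ventricle (RV) and left ventricle (LV) of 6 adult male Sprague-Dawley rats, 3 to 4 months old, with both ventricles of every heart in the series. The hypoxic RV and hypoxic LV groups (n = 3 libraries each) came from rats kept at 10% oxygen in a hypobaric chamber for 2 weeks, which the study used to bring about RV hypertrophy. The normoxic RV and normoxic LV groups (n = 3 libraries each) came from rats kept in room air for the same time. No other treatment and no altered allele are named for any group. The question was how chronic hypoxia changes gene expression in each ventricle.

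Levels are given as scaled TPM: the deposited TPM values (transcript abundance per library of equal size), divided by the library's TMM factor, a correction for differences in RNA composition. They are per transcript length, so levels of different genes can be set side by side. Values within a group are always given for rats 1, 2 and 4 (hypoxic) or rats 1, 2 and 3 (normoxic). A gene is called higher or lower where the quasi-likelihood test of edgeR gave a Benjamini-Hochberg adjusted p under 0.05 over all 13756 genes, and "fell" and "rose" are used only for called genes. The material was bulk tissue, so fewer cells of a type and less RNA per cell cannot be told apart.

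The libraries held 21468274 to 39991848 estimated counts. Mitochondrial genome transcripts took 38.26% to 44.1% of a library in hypoxic RV, 45.07% to 45.78% in normoxic RV, 38.74% to 42.33% in hypoxic LV and 46.93% to 50.56% in normoxic LV. Markers of cardiac myocytes were abundant in every library, as the tissue label says, with summed levels of 54729 to 71573 scaled TPM in hypoxic RV, 71714 to 75290 in normoxic RV, 67498 to 87612 in hypoxic LV and 79688 to 85711 in normoxic LV. The libraries of hypoxic RV rat 4 and hypoxic LV rat 1 stood apart from their groups, both in the fatty acid genes and in markers of cell types, and the counts of called genes without them are given after the single genes.

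In the RV, most of the fatty acid genes were lower after 2 weeks of hypoxia. Of the 45 genes, 28 fell, 1 rose (Acsl5) and 16 were not called, while 7.6% of all genes tested fell and 7.43% rose in the same comparison. The median log2 fold change was -0.67 over the 45 genes and -0.00 over all genes tested. Single genes ranged from -1.52 (Acaa2) to 0.46 (Ucp2), and 41 of 45 values were negative. For 34 of the 45 genes every hypoxic RV library lay below every normoxic RV library, against 20.1% of all genes. In the LV only Ehhadh was called lower and none was called higher, with 0.669% of all genes lower and 0.698% higher. The LV median was -0.34, and 39 of 45 values were negative.

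**Figure D1:**
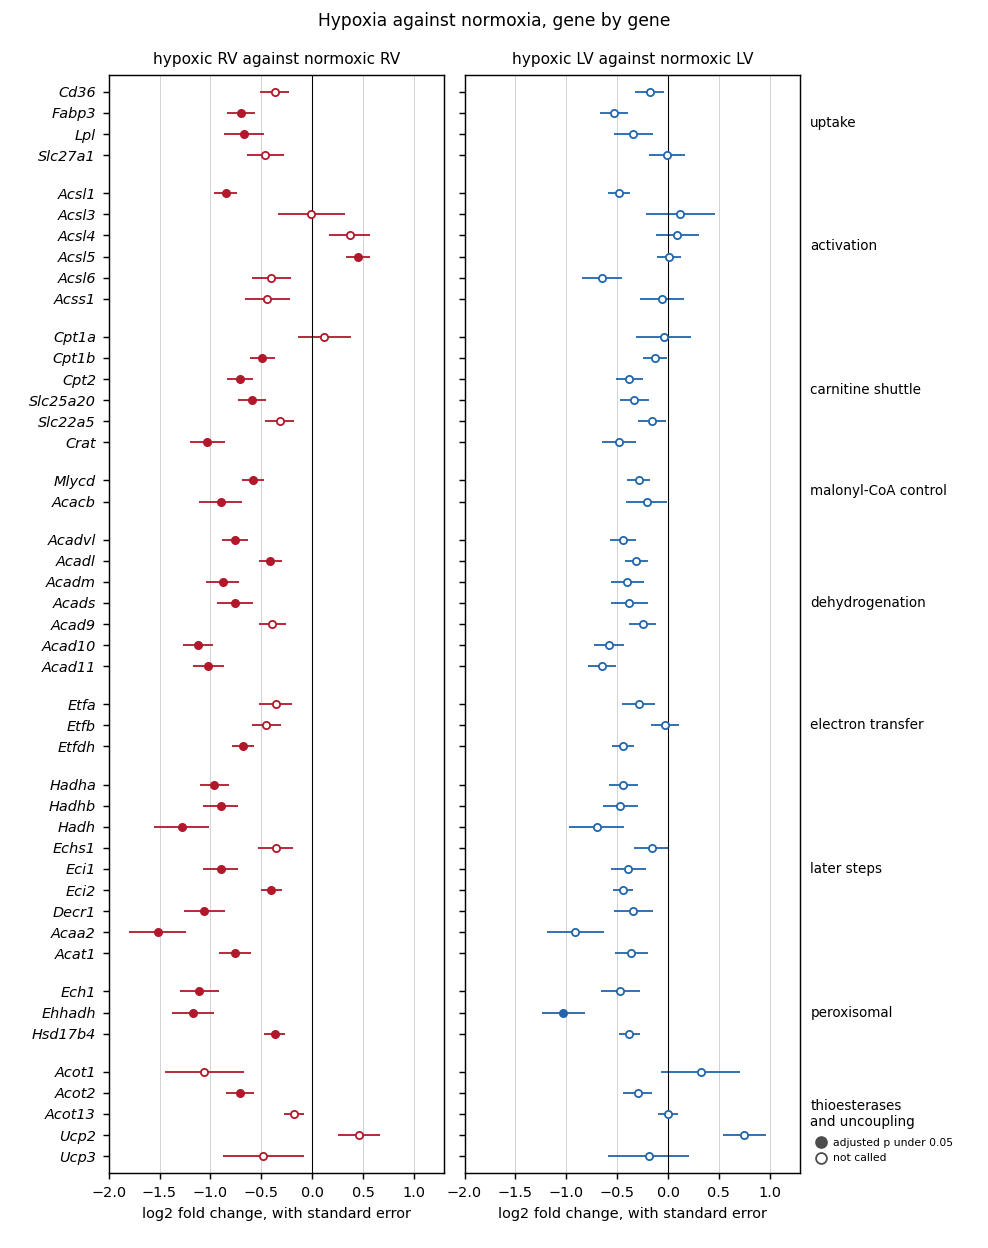
Log2 fold change of each of the 45 fatty acid genes with its standard error, for hypoxic RV against normoxic RV (left) and hypoxic LV against normoxic LV (right), n = 3 libraries in each group. Filled points had an edgeR adjusted p under 0.05 and open points did not. In the RV 28 genes fell and Acsl5 rose, and in the LV Ehhadh alone was called, although most LV points also lie left of 0.

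The genes of the mitochondrial trifunctional protein lie head to head in the rat genome and fell together, so their start regions are shown. Hadha encodes the alpha subunit (hydratase and hydroxyacyl-CoA dehydrogenase) and Hadhb the beta subunit (thiolase). The windows below run from 250 bases before to 50 bases after each start in RefSeq, read 5′ to 3′ on the strand of the gene. The Hadha window is chr6:31907551-31907850 on the plus strand of GRCr8 and the Hadhb window is chr6:31907451-31907750 on the minus strand. Capitals mark a match to the extended core of nuclear receptor sites, AAGGTCA, on either strand.
Hadha: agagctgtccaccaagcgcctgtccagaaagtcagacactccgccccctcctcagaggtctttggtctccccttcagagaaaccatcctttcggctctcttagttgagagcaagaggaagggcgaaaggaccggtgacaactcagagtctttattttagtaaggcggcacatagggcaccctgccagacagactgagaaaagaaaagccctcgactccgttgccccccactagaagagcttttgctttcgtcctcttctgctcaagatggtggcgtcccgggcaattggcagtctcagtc
Hadhb: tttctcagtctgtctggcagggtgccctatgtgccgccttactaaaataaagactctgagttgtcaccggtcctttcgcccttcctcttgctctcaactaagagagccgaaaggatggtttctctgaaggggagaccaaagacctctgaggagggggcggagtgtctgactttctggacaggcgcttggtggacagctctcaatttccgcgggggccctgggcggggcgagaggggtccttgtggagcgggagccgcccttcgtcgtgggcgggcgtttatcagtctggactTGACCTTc
The starts used for these windows are 301 bases apart and point away from each other, so the windows share 200 bases, which appear in the pair of lines as reverse complements. The only match to the extended core is TGACCTT in the Hadhb window, the reverse complement of AAGGTCA, which begins at base 43 of the Hadhb transcript counted from 1 at the start. It lies outside the stretch shared with the Hadha window.

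RefSeq windows were at hand for 39 of the 46 listed genes, and Lpl, Acss1, Cpt1b, Acadl, Decr1, Acaa2 and Ech1 had none. The core AGGTCA, searched on both strands, was in 10 of the 39 windows (25.6%), against 16.2% of 33469 windows in the table. The extended core AAGGTCA, which overlaps the first, was in the windows of Acacb, Acad11 and Hadhb (7.69%), against 4.61% of all windows. All 3 of these genes fell in hypoxic RV, as did 7 of the 10 with the core and 28 of all 45 genes. Only 38 of the 45 had a window, and those without one all fell except Acss1, so the fractions are of unlike sets. The direct repeat of PPAR dimers, AGGTCA and again AGGTCA with a single base between, and TCAAGGTCA, the element of estrogen-related receptors, were in none of the 39 windows, against 0.0538% and 0.433% of all windows. These are letter matches in short windows and say nothing of binding.

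Among the uptake genes, Fabp3 and Lpl fell in hypoxic RV, while Cd36 and Slc27a1 were not called. Fabp3, the heart-type cytosolic fatty acid binding protein, was the most abundant of the 45 in all 4 groups. Its levels were 2879, 2552 and 3434 scaled TPM in hypoxic RV, against 5268, 4779 and 4374 in normoxic RV. The highest hypoxic library was below the lowest normoxic library, and Fabp3 fell (log2 fold change -0.70, standard error 0.14, edgeR adjusted p = 0.011). In the LV Fabp3 had 2884, 3330 and 3888 scaled TPM in hypoxic LV, against 5095, 4975 and 4504 in normoxic LV. Those groups did not overlap either, but the difference was not called (log2 fold change -0.53, standard error 0.14, edgeR adjusted p = 0.0974).

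Lpl, lipoprotein lipase, which frees fatty acids from circulating triglyceride, had 366, 304 and 523 scaled TPM in hypoxic RV, against 719, 570 and 613 in normoxic RV. All hypoxic RV libraries were lower than all normoxic RV libraries, with rat 4 closest to them, and the fall was called (log2 fold change -0.67, standard error 0.20, edgeR adjusted p = 0.0417). The Lpl call was lost in 9 of 17 alternatives. In the LV Lpl had 448, 567 and 671 scaled TPM in hypoxic LV, against 706, 673 and 749 in normoxic LV, a difference that was not called (log2 fold change -0.34, standard error 0.19, edgeR adjusted p = 0.394). Cd36, the fatty acid translocase of the plasma membrane, had 633, 629 and 855 scaled TPM in hypoxic RV, against 1006, 821 and 916 in normoxic RV. Rat 4 of the hypoxic group was above the lowest normoxic library, so the groups overlapped, and Cd36 was not called (log2 fold change -0.37, standard error 0.14, edgeR adjusted p = 0.0945). In the LV Cd36 had 745, 926 and 899 scaled TPM in hypoxic LV, against 1056, 922 and 940 in normoxic LV, again with overlap (log2 fold change -0.18, standard error 0.14, edgeR adjusted p = 0.529). Slc27a1, a fatty acid transport protein, averaged 13.8 ± 2.93 scaled TPM in hypoxic RV, against 19 ± 3.18 in normoxic RV (SD, n = 3 each), with overlapping libraries and a log2 fold change of -0.46 that was not called.

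Activation was split between its isoforms. Acsl1, the chief long-chain acyl-CoA synthetase of the heart, had 156, 151 and 187 scaled TPM in hypoxic RV, against 333, 277 and 283 in normoxic RV. Each hypoxic RV library was below each normoxic RV library, and Acsl1 had the smallest adjusted p of all 45 genes (log2 fold change -0.85, standard error 0.11, edgeR adjusted p = 0.00342). In the LV Acsl1 had 193, 223 and 228 scaled TPM in hypoxic LV, against 301, 289 and 310 in normoxic LV. Those libraries did not overlap, and the difference narrowly missed the threshold (log2 fold change -0.48, standard error 0.11, edgeR adjusted p = 0.0591).

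Acsl5, a long-chain acyl-CoA synthetase found at mitochondria and endoplasmic reticulum, had 13.9, 12 and 14.2 scaled TPM in hypoxic RV, against 9.33, 11 and 9.08 in normoxic RV. It was the only one of the 45 genes to rise in hypoxic RV, where all libraries exceeded all normoxic ones (log2 fold change 0.45, standard error 0.12, edgeR adjusted p = 0.0297), against 18.7% of all genes tested with such a separation upward. The call was lost in 8 of 17 alternatives, among them those without hypoxic RV rat 1 or rat 4 and without normoxic RV rat 1 or rat 3. In the LV Acsl5 had 12.5, 10.3 and 9.65 scaled TPM in hypoxic LV, against 10.3, 10.3 and 11.6 in normoxic LV, and the libraries overlapped (log2 fold change 0.01, standard error 0.12, edgeR adjusted p = 0.979). Within each library Acsl1 made up 84.8% to 87.5% of the summed Acsl1, Acsl3, Acsl4, Acsl5 and Acsl6 level in hypoxic RV, against 91.3% to 93.7% in normoxic RV. The Acsl5 share was 6.61% to 7.58% in hypoxic RV and 2.62% to 3.64% in normoxic RV. Those ranges do not overlap, and the shares are a description without a test. In the LV the Acsl5 share was 3.89% to 5.75% in hypoxic and 3.19% to 3.46% in normoxic libraries.

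The remaining activation genes were not called in either ventricle. Acsl6, a long-chain synthetase best known from brain, averaged 6.53 ± 0.748 scaled TPM in hypoxic RV, against 8.61 ± 1.11 in normoxic RV (SD, n = 3 each), and 4.52 ± 0.929 scaled TPM in hypoxic LV, against 7.1 ± 1.59 in normoxic LV. Acsl3 and Acsl4, further long-chain synthetases, reached at most 6.48 scaled TPM in any library, with RV log2 fold changes of -0.01 and 0.37. Acss1, the mitochondrial acetyl-CoA synthetase, averaged 88.4 ± 33.5 scaled TPM in hypoxic RV, against 120 ± 13.6 in normoxic RV (SD, n = 3 each), and the hypoxic libraries spread from 61.5 to 126.

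**Figure D2:**
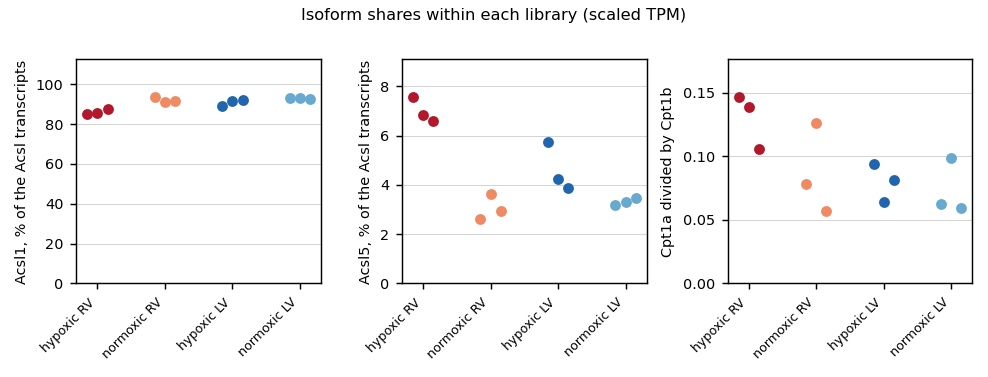
Share of Acsl1 (left) and Acsl5 (middle) in the summed scaled TPM of the 5 Acsl genes, in percent, and level of Cpt1a divided by that of Cpt1b (right), with 1 point per library and groups along the horizontal axis. Acsl5 made up 6.61% to 7.58% in hypoxic RV against 2.62% to 3.64% in normoxic RV, while the Cpt1a to Cpt1b ratios of those groups overlap.

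In the carnitine shuttle, Cpt1b, Cpt2, Slc25a20 and Crat fell in hypoxic RV, and Cpt1a and Slc22a5 were not called. Cpt1b, the muscle isoform of carnitine palmitoyltransferase at the outer mitochondrial membrane, had 93.6, 105 and 114 scaled TPM in hypoxic RV, against 160, 135 and 144 in normoxic RV. The groups did not overlap and Cpt1b fell (log2 fold change -0.49, standard error 0.12, edgeR adjusted p = 0.0229), a call lost in 7 of 17 alternatives. In the LV Cpt1b had 121, 154 and 143 scaled TPM in hypoxic LV, against 165, 158 and 135 in normoxic LV, with overlap (log2 fold change -0.13, standard error 0.12, edgeR adjusted p = 0.612). Cpt1a, the liver isoform of the same enzyme, had 13.7, 14.7 and 12.1 scaled TPM in hypoxic RV, against 12.5, 16.9 and 8.24 in normoxic RV. The normoxic libraries spread more widely than the hypoxic ones and enclosed them, and Cpt1a was not called (log2 fold change 0.12, standard error 0.26, edgeR adjusted p = 0.803). In the LV Cpt1a had 11.3, 9.87 and 11.6 scaled TPM in hypoxic LV, against 10.2, 15.6 and 8.02 in normoxic LV (log2 fold change -0.04, standard error 0.27, edgeR adjusted p = 0.958). The ratio of Cpt1a to Cpt1b was 0.147, 0.139 and 0.106 in hypoxic RV, against 0.0786, 0.126 and 0.057 in normoxic RV, so the ranges overlapped.

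Cpt2, the inner-membrane enzyme that turns acylcarnitine back into acyl-CoA, had 50.7, 55.7 and 62 scaled TPM in hypoxic RV, against 99.3, 91.8 and 84.2 in normoxic RV. No hypoxic RV library reached a normoxic one, and Cpt2 fell (log2 fold change -0.71, standard error 0.13, edgeR adjusted p = 0.00878). In the LV Cpt2 had 59.9, 87.1 and 71.8 scaled TPM in hypoxic LV, against 96.5, 101 and 88.4 in normoxic LV, without overlap and without a call (log2 fold change -0.38, standard error 0.13, edgeR adjusted p = 0.168). Slc25a20, the carnitine-acylcarnitine carrier of the inner membrane, had 107, 111 and 124 scaled TPM in hypoxic RV, against 194, 168 and 151 in normoxic RV. The groups were apart in the RV and the fall was called (log2 fold change -0.59, standard error 0.14, edgeR adjusted p = 0.0184). The Slc25a20 call was lost in 4 of 17 alternatives. In the LV Slc25a20 had 112, 164 and 141 scaled TPM in hypoxic LV, against 181, 169 and 175 in normoxic LV, with hypoxic rat 2 nearest to the normoxic libraries (log2 fold change -0.33, standard error 0.14, edgeR adjusted p = 0.235).

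Crat, the mitochondrial carnitine acetyltransferase, had the largest fall of the shuttle genes, with 102, 80.1 and 128 scaled TPM in hypoxic RV, against 255, 193 and 185 in normoxic RV. All hypoxic RV libraries were lower than all normoxic RV libraries (log2 fold change -1.03, standard error 0.17, edgeR adjusted p = 0.00621). In the LV Crat had 140, 139 and 161 scaled TPM in hypoxic LV, against 213, 216 and 183 in normoxic LV, with no overlap but no call (log2 fold change -0.48, standard error 0.17, edgeR adjusted p = 0.184). Slc22a5, the plasma membrane carnitine transporter, averaged 6.2 ± 0.959 scaled TPM in hypoxic RV, against 7.74 ± 0.165 in normoxic RV (SD, n = 3 each), and its log2 fold change of -0.32 was not called although the libraries did not overlap.

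Both genes of malonyl-CoA control fell in hypoxic RV, and each call was lost in 3 of 17 alternatives. Acacb, the acetyl-CoA carboxylase that makes malonyl-CoA at the mitochondrion, had 12.6, 9.16 and 15.9 scaled TPM in hypoxic RV, against 25.8, 22.7 and 21.7 in normoxic RV. The highest hypoxic RV library was below the lowest normoxic one (log2 fold change -0.90, standard error 0.21, edgeR adjusted p = 0.0177). In the LV Acacb had 18.2, 16.7 and 24.5 scaled TPM in hypoxic LV, against 21.1, 27.4 and 20.1 in normoxic LV, and hypoxic rat 4 lay within the normoxic range (log2 fold change -0.21, standard error 0.20, edgeR adjusted p = 0.639). Mlycd, malonyl-CoA decarboxylase, which removes malonyl-CoA, had 56.7, 50.1 and 60.2 scaled TPM in hypoxic RV, against 92, 82.5 and 74.9 in normoxic RV. Its RV groups did not overlap (log2 fold change -0.58, standard error 0.11, edgeR adjusted p = 0.0107). In the LV Mlycd had 58.2, 74.5 and 68.8 scaled TPM in hypoxic LV, against 85.2, 84.1 and 77 in normoxic LV, without overlap and without a call (log2 fold change -0.29, standard error 0.11, edgeR adjusted p = 0.222).

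The acyl-CoA dehydrogenases open each round of beta-oxidation, and 6 of 7 fell in hypoxic RV. Acadvl, which acts on very long chains at the inner membrane, had 174, 163 and 229 scaled TPM in hypoxic RV, against 346, 309 and 307 in normoxic RV. The groups stood apart and Acadvl fell (log2 fold change -0.76, standard error 0.13, edgeR adjusted p = 0.00699). In the LV Acadvl had 205, 248 and 252 scaled TPM in hypoxic LV, against 300, 341 and 312 in normoxic LV, with no overlap (log2 fold change -0.44, standard error 0.13, edgeR adjusted p = 0.131). Acadm, the medium-chain enzyme, had 389, 324 and 486 scaled TPM in hypoxic RV, against 826, 688 and 692 in normoxic RV. Hypoxic RV rat 4 was the highest of its group and still below all normoxic RV libraries (log2 fold change -0.88, standard error 0.16, edgeR adjusted p = 0.00784). In the LV Acadm had 496, 656 and 683 scaled TPM in hypoxic LV, against 803, 775 and 840 in normoxic LV, and rat 1 was the lowest hypoxic library (log2 fold change -0.40, standard error 0.16, edgeR adjusted p = 0.225).

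Acad10 and Acad11, more recently described members of the family, had the largest falls among the dehydrogenases. Acad10 had 16.9, 15 and 22.9 scaled TPM in hypoxic RV, against 42.4, 38.2 and 37.9 in normoxic RV, groups that did not overlap (log2 fold change -1.12, standard error 0.15, edgeR adjusted p = 0.00347). In the LV Acad10 had 23, 22.9 and 29.3 scaled TPM in hypoxic LV, against 37.4, 38.1 and 36.7 in normoxic LV, also without overlap (log2 fold change -0.58, standard error 0.15, edgeR adjusted p = 0.0834). Acad11 had 4.17, 4.79 and 4.97 scaled TPM in hypoxic RV, against 11.2, 8.93 and 8.16 in normoxic RV, and its hypoxic RV libraries lay close together (log2 fold change -1.02, standard error 0.15, edgeR adjusted p = 0.0043). In the LV Acad11 had 5.81, 5.98 and 7.54 scaled TPM in hypoxic LV, against 9.59, 9.6 and 11.3 in normoxic LV, and the difference missed the threshold (log2 fold change -0.65, standard error 0.14, edgeR adjusted p = 0.0557). Acadl, the long-chain enzyme and second most abundant of the 45 genes, averaged 941 ± 98.2 scaled TPM in hypoxic RV, against 1254 ± 81.8 in normoxic RV (SD, n = 3 each) and fell less (log2 fold change -0.41, standard error 0.11, edgeR adjusted p = 0.0343), a call lost in 9 of 17 alternatives. Acads, the short-chain enzyme, averaged 174 ± 45 scaled TPM in hypoxic RV, against 295 ± 31.4 in normoxic RV (SD, n = 3 each) and fell (log2 fold change -0.76, standard error 0.18, edgeR adjusted p = 0.0218). The Acads call was lost in 3 of 17 alternatives. Acad9, which also serves in the assembly of respiratory complex I, averaged 32.3 ± 4.31 scaled TPM in hypoxic RV, against 42.5 ± 2.58 in normoxic RV (SD, n = 3 each) and was not called (log2 fold change -0.39, standard error 0.13, edgeR adjusted p = 0.0643).

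Of the electron transfer genes, only Etfdh was called. Etfdh, which hands electrons from the flavoprotein to ubiquinone, had 141, 133 and 166 scaled TPM in hypoxic RV, against 257, 224 and 223 in normoxic RV. Its RV groups were well separated (log2 fold change -0.68, standard error 0.11, edgeR adjusted p = 0.00588). In the LV Etfdh had 155, 181 and 193 scaled TPM in hypoxic LV, against 249, 228 and 243 in normoxic LV, with no overlap and no call (log2 fold change -0.44, standard error 0.11, edgeR adjusted p = 0.0778). Etfa and Etfb, the subunits of the electron transfer flavoprotein itself, were not called in the RV, although every hypoxic RV library was below every normoxic one for both. Etfa averaged 370 ± 68.8 scaled TPM in hypoxic RV, against 476 ± 6.95 in normoxic RV (SD, n = 3 each), with a log2 fold change of -0.36. Etfb averaged 321 ± 42.5 scaled TPM in hypoxic RV, against 440 ± 9.73 in normoxic RV (SD, n = 3 each), and its edgeR adjusted p of 0.0532 was just above the threshold.

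**Figure D3:**
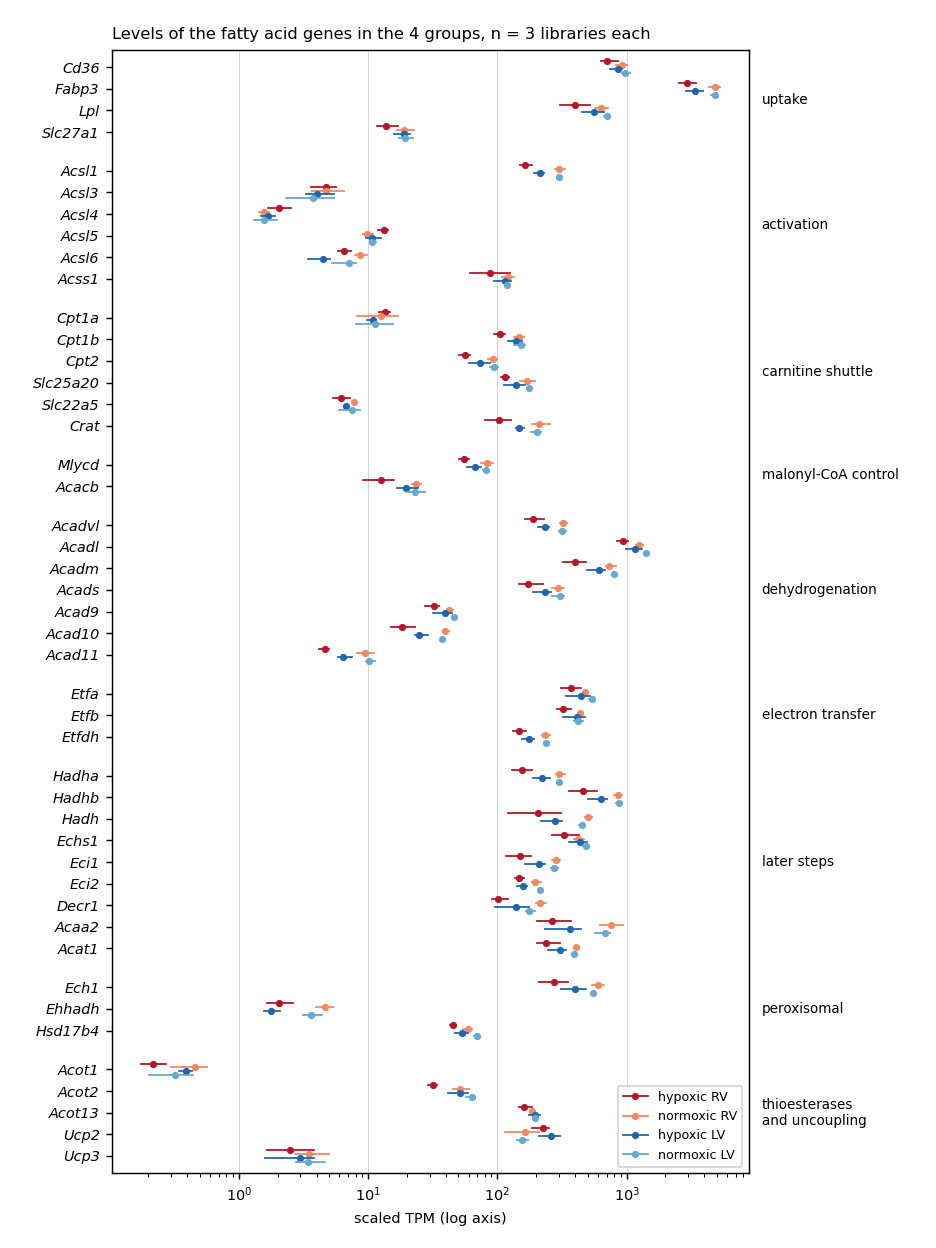
Mean (points) and range (lines) of the level of each of the 45 genes in scaled TPM, on a log axis, for the 4 groups of 3 libraries each, ordered by step. Fabp3 is the most abundant in all 4 groups, Acot1 lies under 1 scaled TPM, and for most genes of dehydrogenation and the later steps the hypoxic RV mean is the leftmost of the 4.

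Of the genes of the later steps of mitochondrial beta-oxidation 8 of 9 were called lower in hypoxic RV, and Acaa2 and Hadh among them had the most negative values of the 45 genes. Acaa2, the mitochondrial ketoacyl-CoA thiolase that cuts off acetyl-CoA, had 203, 226 and 369 scaled TPM in hypoxic RV, against 930, 735 and 625 in normoxic RV. Hypoxic RV rat 4 was the highest of its group and the lowest normoxic library was still far above it, so Acaa2 had the largest fall of all 45 genes (log2 fold change -1.52, standard error 0.28, edgeR adjusted p = 0.00848). In the LV Acaa2 had 232, 408 and 446 scaled TPM in hypoxic LV, against 729, 743 and 573 in normoxic LV, the most negative LV value after Ehhadh, but not called (log2 fold change -0.91, standard error 0.28, edgeR adjusted p = 0.131). Its rank by mean level among the 45 genes was 11 in hypoxic RV against 5 in normoxic RV, and 11 in hypoxic LV against 7 in normoxic LV.

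Hadha, the alpha subunit of the trifunctional protein, had 147, 130 and 186 scaled TPM in hypoxic RV, against 331, 286 and 285 in normoxic RV. Its RV groups were apart (log2 fold change -0.96, standard error 0.14, edgeR adjusted p = 0.00442). In the LV Hadha had 190, 224 and 254 scaled TPM in hypoxic LV, against 287, 306 and 311 in normoxic LV, without overlap or a call (log2 fold change -0.44, standard error 0.14, edgeR adjusted p = 0.147). Hadhb, the beta subunit, had 440, 359 and 588 scaled TPM in hypoxic RV, against 914, 796 and 874 in normoxic RV. Hypoxic RV rat 4 was again the highest of its group and below all normoxic RV libraries (log2 fold change -0.90, standard error 0.17, edgeR adjusted p = 0.00989). In the LV Hadhb had 503, 688 and 703 scaled TPM in hypoxic LV, against 869, 833 and 913 in normoxic LV, with rat 1 the lowest (log2 fold change -0.47, standard error 0.17, edgeR adjusted p = 0.2). The level of Hadha divided by that of Hadhb lay between 0.316 and 0.377 in all 12 libraries.

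Hadh, the hydroxyacyl-CoA dehydrogenase for medium and short chains, had 184, 121 and 313 scaled TPM in hypoxic RV, against 541, 482 and 478 in normoxic RV. The hypoxic RV libraries differed widely among themselves, with rat 2 lowest and rat 4 highest, and all were below the normoxic ones (log2 fold change -1.28, standard error 0.27, edgeR adjusted p = 0.0138). Without hypoxic RV rat 1, or without normoxic RV rat 1, the Hadh call was lost. In the LV Hadh had 217, 298 and 318 scaled TPM in hypoxic LV, against 446, 430 and 476 in normoxic LV, without overlap or a call (log2 fold change -0.70, standard error 0.27, edgeR adjusted p = 0.214). Acat1, the mitochondrial acetoacetyl-CoA thiolase, which also acts in ketone body and isoleucine breakdown, had 210, 204 and 307 scaled TPM in hypoxic RV, against 429, 397 and 395 in normoxic RV. Its RV groups did not overlap (log2 fold change -0.76, standard error 0.16, edgeR adjusted p = 0.0136). The Acat1 call was lost in 3 of 17 alternatives. In the LV Acat1 had 247, 334 and 341 scaled TPM in hypoxic LV, against 391, 398 and 393 in normoxic LV, without overlap or a call (log2 fold change -0.36, standard error 0.16, edgeR adjusted p = 0.278).

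Unsaturated fatty acids need auxiliary enzymes, and 3 of them fell as well. Decr1, the dienoyl-CoA reductase, had 91, 93.7 and 121 scaled TPM in hypoxic RV, against 236, 203 and 199 in normoxic RV. Its RV groups were far apart (log2 fold change -1.06, standard error 0.20, edgeR adjusted p = 0.00842). In the LV Decr1 had 95.6, 176 and 147 scaled TPM in hypoxic LV, against 168, 168 and 194 in normoxic LV, and hypoxic rat 2 lay within the normoxic range (log2 fold change -0.34, standard error 0.19, edgeR adjusted p = 0.388). Eci1, an enoyl-CoA isomerase, had 153, 117 and 182 scaled TPM in hypoxic RV, against 305, 276 and 264 in normoxic RV. The RV groups did not overlap (log2 fold change -0.90, standard error 0.17, edgeR adjusted p = 0.00852). In the LV Eci1 had 165, 233 and 231 scaled TPM in hypoxic LV, against 274, 294 and 259 in normoxic LV, without overlap or a call (log2 fold change -0.39, standard error 0.17, edgeR adjusted p = 0.259). Eci2, a further enoyl-CoA isomerase, averaged 148 ± 11.8 scaled TPM in hypoxic RV, against 195 ± 18.4 in normoxic RV (SD, n = 3 each) and fell less (log2 fold change -0.40, standard error 0.10, edgeR adjusted p = 0.0219), a call lost in 8 of 17 alternatives. Echs1, the short-chain enoyl-CoA hydratase, averaged 327 ± 86.2 scaled TPM in hypoxic RV, against 419 ± 43 in normoxic RV (SD, n = 3 each), overlapped between groups and was not called (log2 fold change -0.36, standard error 0.17, edgeR adjusted p = 0.189).

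All 3 peroxisomal genes found in the table fell in hypoxic RV. Ech1, a dienoyl-CoA isomerase present in peroxisomes and mitochondria, had 267, 210 and 353 scaled TPM in hypoxic RV, against 668, 580 and 543 in normoxic RV. All hypoxic RV libraries were below the normoxic ones (log2 fold change -1.11, standard error 0.19, edgeR adjusted p = 0.00699). In the LV Ech1 had 311, 393 and 483 scaled TPM in hypoxic LV, against 543, 569 and 533 in normoxic LV, without overlap or a call (log2 fold change -0.47, standard error 0.19, edgeR adjusted p = 0.235). Ehhadh, the bifunctional enzyme of the L-hydroxyacyl route, was scarce, with 1.66, 1.87 and 2.65 scaled TPM in hypoxic RV, against 4.54, 5.39 and 3.98 in normoxic RV. The RV groups did not overlap (log2 fold change -1.17, standard error 0.21, edgeR adjusted p = 0.00712). In the LV Ehhadh had 1.58, 1.66 and 2.07 scaled TPM in hypoxic LV, against 3.16, 4.4 and 3.23 in normoxic LV, the only LV call (log2 fold change -1.03, standard error 0.21, edgeR adjusted p = 0.0472). That LV call was lost in 12 of 17 alternatives, among them each fit without 1 of the LV libraries. Hsd17b4, the bifunctional enzyme of the D-hydroxyacyl route, averaged 45.4 ± 2.21 scaled TPM in hypoxic RV, against 58.9 ± 4.71 in normoxic RV (SD, n = 3 each) and had the smallest called fall (log2 fold change -0.37, standard error 0.10, edgeR adjusted p = 0.031), lost in 10 of 17 alternatives.

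Among thioesterases and uncoupling proteins, only Acot2 was called in the RV. Acot2, a mitochondrial thioesterase that frees fatty acids from acyl-CoA, had 34.1, 29 and 32.1 scaled TPM in hypoxic RV, against 60.7, 45.6 and 49.5 in normoxic RV. The RV groups did not overlap (log2 fold change -0.71, standard error 0.14, edgeR adjusted p = 0.0113). The Acot2 call was lost in 3 of 17 alternatives. In the LV Acot2 had 41.7, 58.9 and 54.2 scaled TPM in hypoxic LV, against 57.7, 67.7 and 64.8 in normoxic LV, with overlap (log2 fold change -0.30, standard error 0.14, edgeR adjusted p = 0.305). Acot1, its cytosolic neighbour of nearly identical sequence, averaged 0.216 ± 0.0501 scaled TPM in hypoxic RV, against 0.458 ± 0.141 in normoxic RV (SD, n = 3 each) and was not called (log2 fold change -1.06, standard error 0.39, edgeR adjusted p = 0.0944). Short reads could be divided between the Acot1 and Acot2 transcripts either way, so the levels of both are uncertain. Acot13, a small thioesterase, averaged 162 ± 19.8 scaled TPM in hypoxic RV, against 184 ± 8.59 in normoxic RV (SD, n = 3 each), with a log2 fold change of -0.18 that was not called.

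Ucp2, an uncoupling protein of many tissues including immune cells, had 236, 187 and 251 scaled TPM in hypoxic RV, against 115, 209 and 167 in normoxic RV. Normoxic RV rat 2 lay above the lowest hypoxic RV library, so the groups overlapped and Ucp2 was not called (log2 fold change 0.46, standard error 0.21, edgeR adjusted p = 0.159). In the LV Ucp2 had 306, 270 and 210 scaled TPM in hypoxic LV, against 152, 172 and 143 in normoxic LV. There all hypoxic libraries exceeded all normoxic ones, as for 10.2% of all genes, but the difference was not called either (log2 fold change 0.75, standard error 0.21, edgeR adjusted p = 0.108). Ucp3, the muscle uncoupling protein, was scarce, with 3.8, 2.04 and 1.64 scaled TPM in hypoxic RV, against 5.01, 2.72 and 2.73 in normoxic RV. It overlapped between groups (log2 fold change -0.48, standard error 0.40, edgeR adjusted p = 0.449). In the LV Ucp3 had 3.82, 3.56 and 1.6 scaled TPM in hypoxic LV, against 4.65, 2.78 and 2.84 in normoxic LV, also with overlap (log2 fold change -0.19, standard error 0.40, edgeR adjusted p = 0.852).

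**Figure D4:**
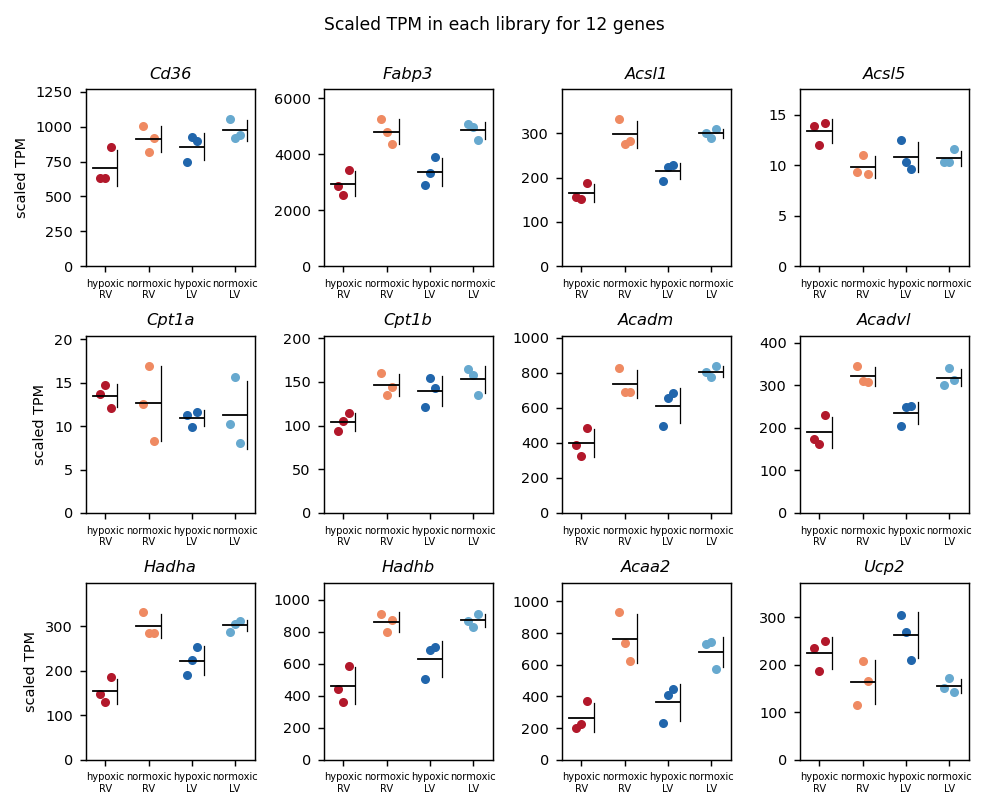
Scaled TPM in each library (points), with group mean (horizontal line) and SD (vertical line), for 12 of the 45 genes, n = 3 libraries per group, with axes that start at 0. For Fabp3, Acsl1, Acadm, Acadvl, Hadha, Hadhb and Acaa2 the hypoxic RV points lie below all normoxic RV points, Acsl5 lies above them, and Cd36, Cpt1a and Ucp2 overlap.

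Read by step, the RV log2 fold changes had a median of -0.57 for uptake (2 of 4 genes called lower), -0.20 for activation (1 of 6 lower and 1 higher), -0.54 for the carnitine shuttle (4 of 6), -0.74 for malonyl-CoA control (2 of 2) and -0.76 for dehydrogenation (6 of 7). The median was -0.45 for electron transfer (1 of 3), -0.90 for the later steps (8 of 9), -1.11 for the peroxisomal genes (3 of 3) and -0.48 for thioesterases and uncoupling (1 of 5). Of the 28 genes that fell, 8 fell by more than 1 on the log2 scale: Crat, Acad10, Acad11, Hadh, Decr1, Acaa2, Ech1 and Ehhadh. In the order of mean levels Fabp3, Acadl, Cd36 and Hadhb held ranks 1 to 4 in all 4 groups, and the ranges of neighbouring genes further down often overlapped. Summed over the 45 genes, the level was 8744 to 12234 scaled TPM in hypoxic RV, against 15393 to 17948 in normoxic RV, and 10733 to 14104 in hypoxic LV, against 16321 to 17174 in normoxic LV. As a share of the TPM outside the mitochondrial genome the sum was 1.91%, 1.71% and 2.16% in hypoxic RV, against 3.31%, 2.96% and 2.9% in normoxic RV. In the LV the share was 2.06%, 2.01% and 2.32% in hypoxic libraries, against 3.01%, 2.88% and 2.89% in normoxic libraries.

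The LV values leaned the same way with smaller size. At an unadjusted p under 0.05, 23 of the 45 genes were lower in hypoxic LV (8.87% of all genes) and 1, Ucp2, was higher (8.72% of all genes). For 26 genes all hypoxic LV libraries were below all normoxic LV libraries, against 11.3% of all genes. With DESeq2, 10 of the 45 were lower and Ucp2 was higher in hypoxic LV, against 1.82% and 2.28% of all genes: Acsl1, Eci2, Etfdh, Ehhadh, Fabp3, Acad10, Acad11, Hsd17b4, Acaa2 and Acadvl were the lower ones. Of the 28 genes that fell in the RV, all 28 had a negative log2 fold change in the LV, as did 39 of all 45. The share among all genes that fell in the RV was not counted. The RV and LV of a rat share an animal, so the pair of comparisons is not independent. Between the ventricles 38 genes were negative in both comparisons, 3 were positive in both and 4 had opposite signs, and the RV value was the more negative for 39 of 45.

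Whether hypoxia acted differently on the ventricles was tested with the interaction term, the RV log2 fold change minus the LV one. The term was called for 0 of the 45 genes by edgeR (0% of all genes) and for 0 of the 45 by DESeq2 (0.0363% of all genes lower and 0.0872% higher). Its median was -0.33 over the 45 genes and -0.02 over all genes tested. With the libraries scaled to cardiac myocyte markers these medians were -0.01 and 0.317. At an unadjusted p under 0.05, 8 genes had a more negative value in the RV (3.67% of all genes) and Acsl5 a more positive one (3.93% of all genes). Hadha had the smallest p among the 45 (difference -0.53, standard error 0.20, edgeR adjusted p = 0.59). With the rat as a block, which pairs the ventricles of a heart, edgeR also called 0 of the 45 (0% of all genes). At an unadjusted p under 0.05 that fit had 13 genes more negative in the RV and 1 more positive. Over all 13756 genes it had 895 more negative and 801 more positive. A difference between the ventricles in the size of the hypoxia effect was therefore not shown for any single gene.

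Hypoxic RV and hypoxic LV were also compared directly. None of the 45 genes was called by edgeR (0.276% of all genes lower, 0.174% higher), the median log2 fold change was -0.37, and 39 of 45 values were negative. In the same comparison all 19 cardiac myocyte markers were negative (median -0.49, 0 called), and all 16 macrophage and monocyte markers were positive (median 0.93, 2 called higher). With the libraries scaled to the myocyte markers, the median of the 45 genes was 0.13. For 10 genes all hypoxic RV libraries were below all hypoxic LV libraries (8.46% of all genes), and for 2 they were above (9.37%). At an unadjusted p under 0.05, 26 were lower (8.24% of all genes) and 2 higher (8.48% of all genes). Acot2 came closest to a call, with 34.1, 29 and 32.1 scaled TPM in hypoxic RV, against 41.7, 58.9 and 54.2 in hypoxic LV (log2 fold change -0.70, standard error 0.14, edgeR adjusted p = 0.0625). With the rat as a block, which uses the pairing of ventricles within a heart, Acacb and Acad10 were called lower in hypoxic RV, 2 of 45 against 1.13% of all genes, and 0 were higher, against 0.741%. Without the hypoxic LV library of rat 1, edgeR called 6 of the 45 genes lower (Acadm, Acot2, Cpt1b, Decr1, Etfb and Hadha). Over all 14081 genes tested that fit called 216 lower and 330 higher. Without the hypoxic RV library of rat 4 edgeR called 3 of the 45 lower (Acad10, Acadm and Hadha). Over all 14142 genes tested that fit called 122 lower and 99 higher. DESeq2 called 5 lower (Acadm, Acot2, Acsl1, Cpt1b and Hadha), against 1.99% of all genes, and 0 higher, against 1.7%.

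In room air none of the 45 genes was called between normoxic RV and normoxic LV by edgeR (0.00727% of all genes lower, 0.0145% higher), by DESeq2 (0.32% lower, 0.247% higher) or with the rat as a block (0.0145% lower, 0% higher). The median log2 fold change was -0.00, and 23 values were negative and 22 positive. That split depended on the scaling: 41 of the 45 were positive with library totals and 39 scaled to myocyte markers. Over all genes the medians then shifted too, to 0.187 and 0.174. All 16 macrophage and monocyte markers were positive (median 0.69, 0 called), as were all 11 fibroblast markers (median 0.67, 0 called). Of 19 cardiac myocyte markers 15 were negative and 4 positive (median -0.13, 0 called). For 4 of the 45 genes the normoxic RV libraries all lay below the normoxic LV ones (8.83% of all genes), and for 2 they all lay above (9.92%). At an unadjusted p under 0.05, 0 were higher (4.78% of all genes) and only Hsd17b4 was lower (4.51% of all genes), with 63.6, 54.2 and 58.9 scaled TPM in normoxic RV, against 72.4, 65.6 and 70.8 in normoxic LV (log2 fold change -0.24, standard error 0.10, edgeR adjusted p = 0.495).

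The libraries of a group were not alike. Each gene's log2 level was taken relative to its mean over all 12 libraries, and the median over the 45 genes was -0.51, -0.55 and -0.20 in hypoxic RV, against 0.38, 0.19 and 0.13 in normoxic RV. It was -0.29, 0.03 and 0.04 in hypoxic LV, against 0.29, 0.29 and 0.23 in normoxic LV. Thus hypoxic RV rat 4 stood above the other libraries of its group, and hypoxic LV rat 1 stood below its own. Without hypoxic RV rat 4 the count called lower in the RV was 33, beside 1331 of all 14142 genes tested. Without hypoxic RV rat 1 it was 18 (334 of 14054), and without hypoxic RV rat 2 it was 17 (278 of 13986). It was 16 without normoxic RV rat 1 (324 of 14074). Calls over all genes thus moved the same way. The median over the 45 genes stayed between -0.77 and -0.55 in these fits.

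Markers of cell types moved along with these values. The 19 cardiac myocyte markers found had a median log2 fold change of -0.42 in hypoxic RV against normoxic RV, with 6 called lower and 0 higher, and none of the 19 was at 0. These markers differed among themselves, from -1.43 (Myh6) to 0.64 (Myh7), with 16 negative and 3 positive. Their medians per library were -0.43, -0.49 and -0.06 in hypoxic RV, against 0.14, 0.00 and 0.05 in normoxic RV, so rat 4 stood above its group here too. With the libraries scaled to these markers instead, 18 of the 45 genes were lower and 2 higher (Acsl5 and Ucp2) in hypoxic RV, the median over the 45 was -0.27, and that over all genes shifted to 0.418. Under that scaling 1.55% of all genes were lower and 25.7% higher. Whether these markers track the amount of myocytes was not tested. In hypoxic RV against hypoxic LV the same scaling left 6 of the 45 genes higher and 0 lower, while the median over all genes shifted to 0.492, with 35.2% of all genes higher and 0.284% lower.

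The 16 macrophage and monocyte markers had a median of 0.71 in the RV comparison, with 7 called higher and 0 lower and none at 0, and summed levels of 332 to 507 scaled TPM in hypoxic RV, against 198 to 273 in normoxic RV. The 11 fibroblast markers had a median of 1.04, with 6 higher and 0 lower and none at 0, and summed levels of 1129 to 2064 scaled TPM in hypoxic RV, against 956 to 1189 in normoxic RV. Hypoxic RV rat 4 was the lowest of its group in both lists, at a median per library of 0.50 against 1.10 and 0.73 for macrophages and 0.15 against 1.01 and 1.34 for fibroblasts. Of 9 endothelial markers 1 was higher and 1 lower (median 0.26), a share near that of all genes (7.43% higher, 7.6% lower). The 6 erythroid markers had a median of 1.15, with 1 called higher, and summed levels of 6384 to 10443 scaled TPM in hypoxic RV, against 3626 to 4550 in normoxic RV.

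The medians of the cardiac myocyte, macrophage, fibroblast, endothelial and erythroid lists had the same signs in the LV comparison, where none of their genes was called. All 16 macrophage and monocyte markers were positive (median 0.54), with summed levels of 180 to 275 scaled TPM in hypoxic LV, against 118 to 182 in normoxic LV. All 11 fibroblast markers were positive (median 0.56), with summed levels of 887 to 1400 scaled TPM in hypoxic LV, against 699 to 873 in normoxic LV. The erythroid markers had a median of 1.90, and their summed level spread from 6413 to 35413 scaled TPM in hypoxic LV, against 4196 to 6413 in normoxic LV. The cardiac myocyte markers had a median of -0.09. The part of these cell types in the fall of the fatty acid genes was not tested.

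**Figure D5:**
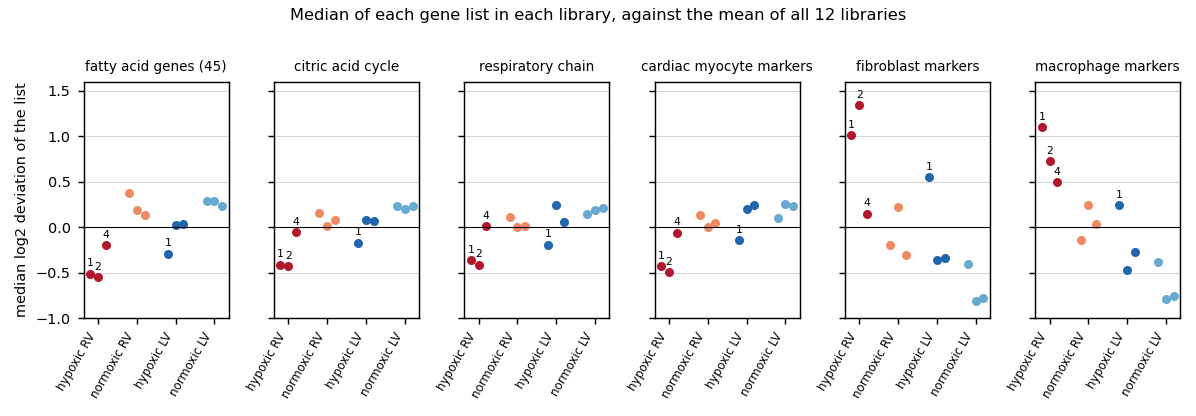
Median log2 deviation of 6 gene lists in each library from the mean of all 12 libraries, with 1 point per library and groups along the horizontal axis, where numbers name the hypoxic RV rats and hypoxic LV rat 1. For the fatty acid genes the points lie at -0.55 to -0.20 in hypoxic RV and 0.13 to 0.38 in normoxic RV, and rat 4 is nearest to 0 in hypoxic RV for the myocyte markers too.

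Genes beside the 45 in the same or related pathways were read from lists drawn up by function. Of 28 further tested genes of beta-oxidation, carnitine metabolism and related breakdown, 13 fell and 0 rose in hypoxic RV. That was 46.4% lower, against 7.6% of all genes lower and 7.43% higher. The median was -0.45, against -0.00 over all genes. Echdc3, an enoyl-CoA hydratase domain protein, had 23.2, 28.4 and 23.6 scaled TPM in hypoxic RV, against 48.2, 51.1 and 40.4 in normoxic RV (log2 fold change -0.89, standard error 0.13, edgeR adjusted p = 0.0043). In the LV Echdc3 had 25.2, 24.2 and 25.4 scaled TPM in hypoxic LV, against 44.2, 32.7 and 36.9 in normoxic LV and was called as well (log2 fold change -0.60, standard error 0.13, edgeR adjusted p = 0.0495). Hsdl2 and Echdc2, less well known relatives of these enzymes, fell by log2 values of -0.81 and -0.92, and Pccb, a subunit of propionyl-CoA carboxylase, fell with -0.90. The list also holds enzymes of amino acid and propionate breakdown, and several of the 13 were of that kind, Pccb among them.

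Of 18 further peroxisomal genes, 8 fell (44.4%, against 7.6% of all genes) and 0 rose (against 7.43%), with a median of -0.31. Acaa1b, a peroxisomal thiolase, fell (log2 fold change -0.58, standard error 0.11, edgeR adjusted p = 0.00973), as did Pecr, the trans-enoyl-CoA reductase (log2 fold change -0.58, standard error 0.12, edgeR adjusted p = 0.0114).

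Of 16 regulators of this pathway (PPAR, ERR and PGC-1 families and partners), 7 fell and 0 rose, with a median of -0.50. That was 43.8% lower, against 7.6% of all genes lower and 7.43% higher. Lpin1, a phosphatidate phosphatase and PGC-1 partner, had 8, 6.02 and 10.5 scaled TPM in hypoxic RV, against 22.9, 20.7 and 19.8 in normoxic RV (log2 fold change -1.38, standard error 0.23, edgeR adjusted p = 0.00643). Ppargc1a, the coactivator PGC-1 alpha, had 5.45, 5.26 and 7.84 scaled TPM in hypoxic RV, against 12.5, 8.49 and 11.8 in normoxic RV (log2 fold change -0.83, standard error 0.23, edgeR adjusted p = 0.0349). Esrrb and Esrrg, estrogen-related receptors, fell by log2 values of -0.67 and -0.43, and Esrrb was also called in the LV (log2 fold change -0.93, standard error 0.17, edgeR adjusted p = 0.0283). Of 13 further uptake genes 2 rose and 2 fell (15.4% each, against 7.43% and 7.6% of all genes). Fabp4 and Fabp5, binding proteins known from adipocytes, endothelium and macrophages, rose, while Vldlr, a lipoprotein receptor, and Got2, the mitochondrial aspartate aminotransferase, fell. Fabp5 had 102, 98.8 and 114 scaled TPM in hypoxic RV, against 55.2, 81.2 and 70 in normoxic RV (log2 fold change 0.61, standard error 0.12, edgeR adjusted p = 0.0106), and Fabp4 had 915, 858 and 1032 scaled TPM in hypoxic RV, against 594, 801 and 589 in normoxic RV (log2 fold change 0.50, standard error 0.15, edgeR adjusted p = 0.0425).

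Neighbouring parts of oxidative metabolism were read in the same way. Of 17 citric acid cycle genes 7 fell (median -0.39), and of 23 nuclear genes of the respiratory chain and ATP synthase 2 fell (median -0.29), with 0 higher in both. The citric acid cycle share was 41.2%, and that of the respiratory chain, 8.7%, was near the 7.6% of all genes that fell.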

How the data were processed

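The authors checked reads (stranded polyadenylated RNA, single end) with FastQC, quantified them with kallisto 0.43.1 on an Ensembl transcriptome of Rnor_6.0 and brought transcripts to the gene level with tximport. The deposited TPM values are normalised per length and per library. The deposited estimated counts, from the same tools, are each library's TPM times a constant, so their totals (21468274 to 39991848) set depth but add nothing on length. Left out were 27 entries named by a number (0.0408% to 0.0621% of a library).

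Rounded counts passed filterByExpr (13756 genes), were scaled by TMM (factors 0.853 to 1.206) and went into glmQLFit and glmQLFTest of edgeR 4.0.16 (R 4.3.3), with 1 mean per group and 8 residual degrees of freedom. Standard errors were taken as the size of the log2 fold change over the root of its F statistic. The code was tested on simulated data. Alternatives used DESeq2 1.42.0, limma 3.58.1, other scalings and filters, blocks, and each library left out.

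The genes, lists and tests were chosen with earlier results of these data known. Values per library are given for the 20 called genes with the smallest adjusted p and for landmark genes of each step, the others by group, and up to 4 genes per further list by smallest adjusted p. Some genes that this rule names are not reported here. RV and LV libraries with the same number and exposure come from the same rat. Across genes, their deviations from group means correlated at r = 0.173, 0.089 and 0.213 (hypoxic rats 1, 2 and 4) and 0.037, 0.14 and 0.159 (normoxic rats 1, 2 and 3). Between different rats r was -0.184 to 0.042, a range that holds the value of normoxic rat 1. Deviations from a mean of 3 libraries sum to 0, so positive values within rats by themselves lower those between different rats. The paired fit has the rat as a block and 4 residual degrees of freedom. Promoter windows are from RefSeq (GRCr8), whose build differs from that of the counts.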

Additional observations from a re-analysis of the deposited data

How the results depend on the processing

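Of the 28 falls in hypoxic RV, 14 kept their call in all 17 alternatives: Fabp3, Acsl1, Crat, Acadvl, Acadm, Acad10, Acad11, Hadha, Hadhb, Eci1, Decr1, Acaa2, Ech1 and Ehhadh. Cpt2 and Etfdh lost theirs only when scaled to cardiac myocyte markers. Scaling to cardiac myocyte markers left 18 lower and 2 higher, and put the median of all genes at 0.418 in the RV comparison, 0.095 in the LV comparison, 0.492 in hypoxic RV against hypoxic LV and 0.174 between the normoxic ventricles. With TMM these medians were -0.003, 0.008, -0.009 and 0.006. Library totals without TMM put them at 0.121, 0.173, 0.129 and 0.187, and left 864 genes higher and 429 lower in the RV comparison, against 1022 and 1045 with TMM. The rise of Acsl5 was not called with library totals or by limma on log2(TPM + 1) or log2(TPM + 0.1), each of which gave 0 genes higher. Leaving out 1 library gave 16 to 33 genes lower and 0 to 1 higher in hypoxic RV against normoxic RV. In the LV comparison it gave 0 to 1 lower, and in hypoxic RV against hypoxic LV 0 to 6 lower.

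In hypoxic LV against normoxic LV, the genes called lower numbered 0 with library totals, without a low-count filter, with only the 6 libraries compared and in both limma fits, 4 with a minimum CPM of 1 in 3 libraries, and 10 with DESeq2, which also called 1 higher. Over all genes the fits with 0 called 12 to 52 lower, the fit with a minimum CPM 112 and DESeq2 251. In hypoxic RV against hypoxic LV they numbered 5 with DESeq2 and 2 with the rat as a replicate block, and 6 were higher when scaled to myocyte markers. The rat block changed no other call of the 45 genes. Between exposures a shared number names different rats (r from -0.059 to 0.01). A block by that number gave 34 of the 45 genes lower in the RV comparison and 12 lower in the LV comparison. Number 3 occurs only in normoxia and number 4 only in hypoxia. In that fit the difference between exposures therefore rests mainly on numbers 1 and 2. In the RV comparison Acsl3 (0.48) was the 1 gene higher, in place of Acsl5 (adjusted p = 0.0571, edgeR). Over all 13756 genes that block called 1586 lower and 1299 higher in the RV comparison. In the LV comparison it called 395 lower and 261 higher.

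Signs changed for a few genes. In the RV comparison, scaling to myocyte markers gave Cd36 0.03, against -0.37 with TMM. Of the genes called lower with TMM, 2 turned positive under that scaling, Eci2 with 0.01 against -0.40 and Hsd17b4 with 0.05 against -0.37. Others kept a negative sign but lost the call, and 18 stayed lower. Cpt1a was -0.07 with the number block and ranged from -0.12 (without normoxic RV rat 3) to 0.39 with 1 library left out. In the LV comparison Cpt1a was 0.13 with library totals, 0.06 scaled to myocyte markers, 0.15 and 0.16 in the limma fits, and ranged from -0.24 to 0.27 with 1 library left out, positive without hypoxic LV rat 2 (0.03) or normoxic LV rat 2. Cpt1b was 0.02 with library totals and in both limma fits, and Ucp3 ranged from -0.41 to 0.12 with 1 library left out, positive without hypoxic LV rat 4 or normoxic LV rat 1 (0.10). The cause was not tested.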
